A study of Mus musculus with 3 samples.

Results

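Dividing follicular granulosa cells were taken as the cells that the authors named follicular granulosa cells and that held at least 2 UMIs summed over Top2a, Mki67 and Ube2c. A UMI (unique molecular identifier) stands for 1 captured mRNA molecule. Of 14353 ovarian cells, 1283 were follicular granulosa cells, and 204 of these met the rule. Top2a encodes the topoisomerase that untangles sister chromosomes, Mki67 a protein that coats mitotic chromosomes, and Ube2c a ubiquitin-conjugating enzyme that works with the anaphase-promoting complex. The members were chosen by the UMIs of these 3 genes, so their levels, the share of cells that met the rule and every difference between dividing and other granulosa cells are given as a description.

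Ovarian cells of C57BL/6 female mice were profiled by 10x 3′ single-cell RNA sequencing to ask how age and metformin alter the ovary. The young mice were 3 months old. The metformin mice were aged mice that received 350 mg/kg/day for 6 months from 14 months of age, which the study calls prevention, and the third condition was untreated aged mice, whose age is not stated for these cells. The 3 ovaries of a group were pooled into 1 suspension, and cells of all conditions carried lipid-anchored DNA tags and were read together in pools A, B and C. A condition was therefore taken as 1 sample and its 3 pools as technical repeats, since the labels tie no pool to separate mice: no difference was tested, and the 95% intervals below cover counting error alone. A 40 µm strainer held back the oocytes and the rest was sorted, so the cells are dissociated granulosa cells without their oocyte.

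The members came from all 3 pools, 73 from A, 63 from B and 68 from C. There were 174 young members (67, 47 and 60 in pools A, B and C), 20 untreated aged members (4, 9 and 7) and 10 metformin members (2, 7 and 1). They held 3068634, 334381 and 166107 UMIs in young, aged and metformin ovaries, with medians of 16977, 16497 and 18652 UMIs per cell. The other follicular granulosa cells were shallower, at medians of 7600, 4499 and 4642. Mitochondrial transcripts made up a median of 4.40%, 4.32% and 4.19% of the UMIs of dividing cells, against 6.43%, 7.23% and 6.88% in the other cells. The authors' table held no doublet, and cell barcodes found in more than 1 pool numbered 26, on 52 cells, 1 of which was a member.

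A follicle grows largely because its granulosa cells divide. In small follicles these cells make anti-Müllerian hormone (Amh), and as a follicle forms its fluid-filled antrum, follicle-stimulating hormone (FSH) drives the mural granulosa cells to make inhibins, activins and, through aromatase (Cyp19a1), oestradiol. A dividing cell first copies its DNA in S phase. Cyclin-dependent kinase 1 with its cyclins then starts mitosis, and the anaphase-promoting complex with its activator Cdc20 ends it.

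Granulosa and cell cycle genes were both present in the members. Inha, which encodes the inhibin α subunit, had a UMI in 98.5% of dividing cells, the activin antagonist Fst in 91.7%, the nuclear receptor Nr5a2 in 92.2%, and the granulosa transcription factor Foxl2 in 75.5%. Amh was detected in 65.7% of the dividing and 27.0% of the other follicular granulosa cells, and in 0.205% of the cells named T cell/NKT, which should lack it. Top2a was detected in 82.8% of the members, Mki67 in 79.4% and Ube2c in 78.9%, which the rule fixes. Of the cell cycle markers that the rule did not use, Birc5 had a UMI in 77.5% of members and 1.85% of other follicular cells, Cdk1 in 69.6% and 7.32%, and Ccnb1 in 57.4% and 1.02%. Dividing cells held more UMIs each than the other cells, so shares of cells with a UMI depend on depth as well as on level. Foxl2, for example, was detected in 55.8% of the other follicular cells. The members, most of them young, thus carried markers of both granulosa cells and division as a group, although few aged members held Amh.

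The members spanned a wide range of the rule's own score. They held from 2 to 137 UMIs of the 3 genes, with a median of 13 over all members, 12 in young, 23 in aged and 8.5 in metformin cells. Just inside the threshold, 25 cells held 2 such UMIs (median 13008 UMIs in all), of which the authors' deposited phase put 5 in G1, 11 in S and 9 in G2/M. Just outside, 92 cells held 1 such UMI (median 9576 UMIs), with 38 in G1, 34 in S and 20 in G2/M. Birc5 stood at 45.8 CPM (the UMIs of a gene summed over a group of cells and scaled to the same total in every group) inside and 17.6 CPM outside, and at 1.72 CPM in the 987 cells with none. Mcm5, a subunit of the replicative helicase, followed the same order, at 60.2, 24.8 and 7.75 CPM.

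Among follicular granulosa cells the share in division was 17.5% in young ovaries (174 of 996 cells, exact 95% interval 15.2% to 20.0%), with 20.0%, 15.4% and 16.9% in pools A, B and C. Untreated aged ovaries gave 15.3% (20 of 131, 9.58% to 22.6%), with 8.51%, 22% and 16.3% in the pools. Metformin ovaries gave 6.41% (10 of 156, 3.12% to 11.5%), with 3.64%, 13.5% and 2.04%, and 2.88% without pool B. The ratio of aged to young shares was 0.874 (0.521 to 1.39), whose interval includes equality, and that of metformin to aged shares was 0.420 (0.176 to 0.940). In each of the 3 pools the metformin share lay below the aged and the young share, although pool B of metformin exceeded pool A of the aged cells. Both ratios rest on the same aged cells.

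**Figure D1:**
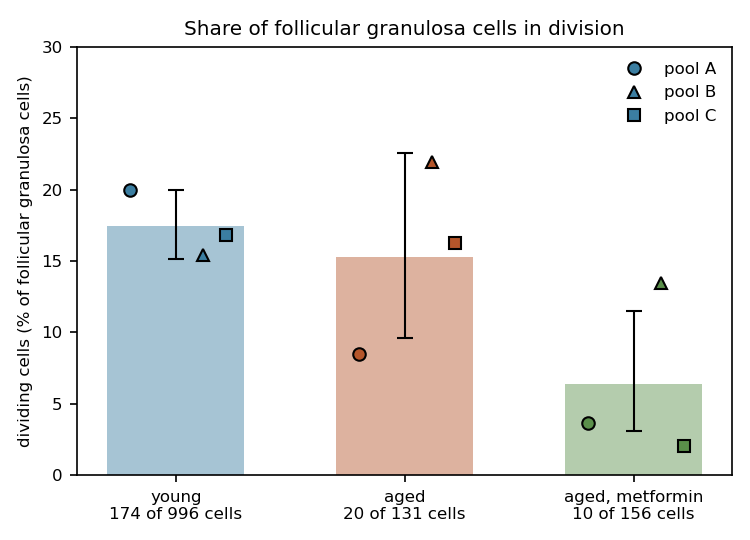
Percent of follicular granulosa cells that met the rule for division, by condition; bars are the 3 pools together, whiskers exact Clopper-Pearson 95% intervals for counting error, and symbols the pools. The young pools lie between 15.4% and 20.0%, the aged pools spread from 8.51% to 22%, and the metformin pools from 2.04% to 13.5%.

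Depth sets how many cells can reach 2 UMIs, so the shares were also counted after thinning each cell to a fixed number of UMIs. At 2000 UMIs, leaving out 75 young, 32 aged and 29 metformin cells below that depth, the shares were 9.88% (8.03% to 12%), 11.1% (5.68% to 19.0%) and 3.94% (1.29% to 8.95%). The same cells unthinned gave 18.9%, 20.2% and 7.87%. At 5000 UMIs, leaving out 211, 60 and 79 cells, the shares were 16.2%, 23.9% and 10.4%. The ratio of aged to young shares, 0.874 over all cells, was 0.984 (0.408 to 2.05) at 1000 UMIs. It was 1.12 (0.542 to 2.11) at 2000 and 1.48 (0.836 to 2.46) at 5000 UMIs, and every one of these intervals includes equality. The cells kept at 2000 UMIs had a higher aged than young share already before thinning, so these ratios reflect the cells left out as well as the depth. The ratio of metformin to aged shares was 0.405 (0.0892 to 1.51), 0.354 (0.0965 to 1.11) and 0.434 (0.162 to 1.06) at 1000, 2000 and 5000 UMIs. Its interval, which lay below 1 in the unthinned counts, thus includes equality after thinning. Of all cells of a condition, dividing follicular granulosa cells were 2.28% in young, 0.671% in aged and 0.266% in metformin ovaries. Follicular granulosa cells had the highest share of cells meeting the rule among the 20 deposited classes over all conditions together, 15.9% against 10.3% for Dendritic cell I, and 10.0% against 6.94% after thinning to 2000 UMIs. In young cells alone Macrophage II (1 of 3 cells) and B cell II (2 of 11) had higher shares, on few cells.

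The deposited phase calls placed most young members in G2/M: 126 of 174 (72.4%, 65.1% to 78.9%), with 42 in S (24.1%, 18.0% to 31.2%) and 6 in G1. Aged members were 10 in S (50%, 27.2% to 72.8%) and 10 in G2/M, and metformin members 2 in S, 7 in G2/M and 1 in G1. The other follicular granulosa cells also held cells called S or G2/M. In young ovaries these were 211 in S (25.7%) and 61 in G2/M (7.42%) of 822, and in aged ovaries 34 and 8 of 111. Cells outside the rule are therefore not all cells out of the cycle by these calls. The phase calls rest on levels of cell cycle genes, and those of the rule may be among them. In young members Cenpf, a kinetochore protein of G2 and mitosis, stood at 77.8 CPM in S cells and 583 CPM in G2/M cells. Ccnb1, the cyclin that starts mitosis, stood at 13.4 and 144 CPM. The replication clamp Pcna went the other way, at 373 and 131 CPM, as did Mcm5 at 93.8 and 32.1 CPM. Median depth was 17153 UMIs in S cells, 17162 in G2/M cells and 12268 in the 6 G1 cells.

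Between dividing and other young granulosa cells, 11.5% of the 11771 genes with at least 20 UMIs lay past 1.5-fold higher and 20.7% past 1.5-fold lower, and the median log2 ratio over all of them was -0.10. Every tested cell cycle list stood above this, as the choice of the cells provides. All 30 replication genes were past 1.5-fold higher (median log2 ratio 2.27), as were 20 of 20 cyclins and kinases of S and G2/M (4.76), 18 of 18 kinetochore genes (3.99), 24 of 24 genes of the spindle and cytokinesis (4.97), 13 of 15 of condensin and cohesin (2.83), 16 of 16 of homologous recombination and crosslink repair (2.56) and 9 of 10 replication histones (2.54). The anaphase-promoting complex went less far, with 7 of 16 past 1.5-fold and a median of 0.45. In aged cells the same contrast gave medians of 2.82 for replication, 4.51 for kinetochore and 5.04 for spindle genes, where 16.3% of all genes were past 1.5-fold higher and 22.9% lower.

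The ranking named 12 genes with higher levels in dividing young cells. Esco2, which fixes cohesin on the copied chromosomes, had 266 UMIs in 85 of the 174 dividing young cells and 3 UMIs in the 822 others, at 83.9, 54.4 and 114 CPM in pools A, B and C against 0.843, 0 and 0.466 CPM. The levels of the dividing cells exceeded those of the others in each pool, and the log2 ratio was 7.58 (6.01 to 9.86), or 8.55 without pool A, where 1 UMI was left in the other cells. Pbk, a mitotic kinase, stood at 127 against 0.909 CPM (log2 ratio 7.13, 6.00 to 8.59), and Aspm, which organises spindle poles, at 118 against 0.909 CPM (7.02, 5.88 to 8.48). Aurkb, the kinase of the chromosomal passenger complex, had a ratio of 6.86 (5.62 to 8.50), which was 8.71 without pool B, and its partner Birc5 one of 6.16 (5.62 to 6.76). Cep55, which acts at the final cut between daughter cells, had 134 UMIs in dividing cells and none in the others, so its log2 ratio was at least 6.59 with 3 UMIs taken as the floor. The microtubule proteins Nusap1, Tpx2 and Kif15, the mitotic regulators Ccna2 and Depdc1a and Cenpf completed the 12, with log2 ratios of 6.79, 6.31, 6.36, 6.53, 7.20 and 5.88. Without pool A that of Nusap1 was 7.52 and that of Kif15 7.17.

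Promoters of genes of late division often carry a CHR element and CCAAT boxes, which are bound by the DREAM and MuvB complexes and by NF-Y, and promoters of replication genes often carry E2F sites. Sequences before the start of 4 genes of late division and of the helicase gene Mcm5 are printed to show these letters, from RefSeq GRCm38.p6, 5′ to 3′ on the strand of the gene, with capitals marking TTTGAA (CHR), CCAAT and the E2F motifs TTTGGCGC, TTTCCCGC, TTTGCCGC and TTTCGCGC on either strand. Top2a is at chr11:99024190-99024389 (minus strand), Ube2c at chr2:164769729-164769897 (plus), Cdk1 at chr10:69352939-69353112 (minus), Cdc20 at chr4:118437353-118437543 (minus) and Mcm5 at chr8:75109309-75109508 (plus).
Top2a: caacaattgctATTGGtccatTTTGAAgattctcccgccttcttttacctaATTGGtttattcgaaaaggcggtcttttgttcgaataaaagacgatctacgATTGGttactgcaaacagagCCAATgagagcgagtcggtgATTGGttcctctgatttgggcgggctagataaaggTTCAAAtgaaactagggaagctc
Ube2c: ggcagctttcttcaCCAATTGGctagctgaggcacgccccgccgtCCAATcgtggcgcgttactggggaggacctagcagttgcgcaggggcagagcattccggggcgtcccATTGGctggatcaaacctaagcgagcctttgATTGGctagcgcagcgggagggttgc
Cdk1: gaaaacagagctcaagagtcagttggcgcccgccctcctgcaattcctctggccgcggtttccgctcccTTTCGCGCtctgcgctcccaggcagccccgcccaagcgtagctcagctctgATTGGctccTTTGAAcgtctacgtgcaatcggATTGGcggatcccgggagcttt
Cdc20: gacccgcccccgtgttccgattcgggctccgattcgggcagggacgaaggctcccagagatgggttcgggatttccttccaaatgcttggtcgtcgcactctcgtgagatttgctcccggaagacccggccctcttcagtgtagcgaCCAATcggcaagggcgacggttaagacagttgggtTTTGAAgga
Mcm5: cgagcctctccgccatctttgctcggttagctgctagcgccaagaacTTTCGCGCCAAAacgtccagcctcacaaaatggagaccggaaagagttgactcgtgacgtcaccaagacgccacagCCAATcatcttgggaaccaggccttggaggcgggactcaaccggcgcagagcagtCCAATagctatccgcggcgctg

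The Top2a stretch held 5 CCAAT boxes, on both strands, and 2 CHR elements. The Ube2c stretch held 5 CCAAT boxes, the first pair overlapping, and no CHR or E2F letters, and those of Cdk1 and Cdc20 held both a CHR element and a CCAAT box, with an E2F motif in Cdk1. In Mcm5 a pair of E2F motifs overlapped on opposite strands. In the 250 bases before the start, CCAAT was present in 67.3% of the 52 matched genes of the cyclin, kinetochore and spindle lists, in 64% of the 25 matched replication genes, and in 34.5% of the 27025 genes of the table. CHR was present in 23.1%, 12% and 16.3%, and E2F motifs in 9.62%, 24% and 1.91%. Among the other lists, those of cell type markers left aside, CCAAT ranged widely. It was present in 10% of 10 matched genes of D cyclins and growth inputs and 92.9% of 14 genes of cholesterol biosynthesis, the lowest and highest. Between them lay 18.2% of 11 granulosa identity genes, 53.8% of 13 matrix genes and 66.7% of 12 p53 targets, so it was not particular to division genes. A match is a description of these letters and not a binding site.

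**Figure D2:**
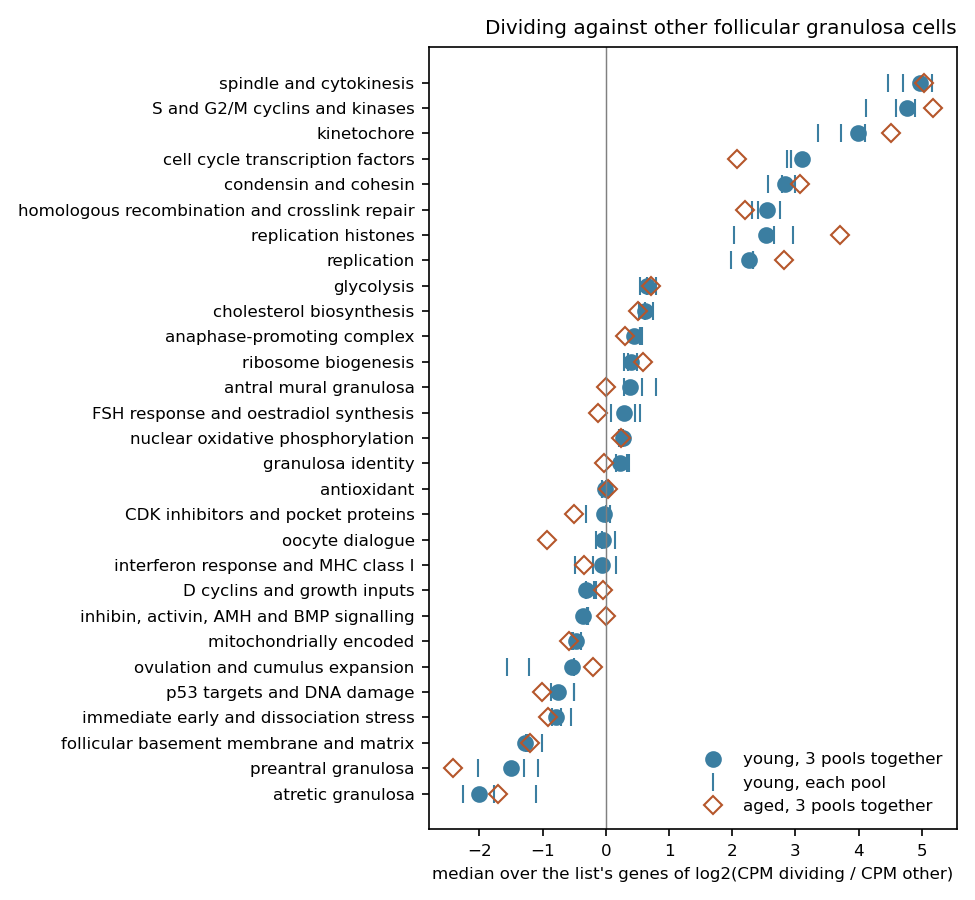
Median over each gene list of the log2 ratio of CPM in dividing against other follicular granulosa cells; filled circles are young cells with the 3 pools together, ticks the young pools, and open diamonds aged cells. The 8 cell cycle and repair lists at the top lie above 2 in both conditions, and the matrix, preantral and atretic lists below -1.

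Granulosa genes also differed between dividing and other cells. Of 19 granulosa identity genes 6 were past 1.5-fold higher and 3 lower (median 0.22). Fst stood at 936, 1067 and 741 CPM in the dividing young cells of pools A, B and C and at 414 CPM in the others (log2 ratio 1.13, 1.05 to 1.20). Amh stood at 294, 408 and 329 CPM against 245, 165 and 165 CPM (0.79, 0.67 to 0.91), Inhbb, which encodes an activin subunit, at 197 against 67.7 CPM (1.54, 1.36 to 1.72), and the FSH receptor Fshr at 44.3 against 20.3 CPM (1.13, 0.77 to 1.48). Foxl2 was lower in dividing cells, at 101 against 168 CPM (-0.73, -0.92 to -0.55), and so was the Wilms tumour factor Wt1, at 65.5 against 147 CPM (-1.17, -1.39 to -0.94). For the first 4 every dividing pool lay above every pool of the other cells, as for 17.3% of all genes tested, and for Foxl2 and Wt1 below, as for 23.4%.

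Preantral genes were lower in dividing cells. All 6 preantral genes were past 1.5-fold lower in dividing young cells (median -1.50, and -2.02, -1.29 and -1.08 in pools A, B and C). Kitl, the ligand that granulosa cells present to the oocyte, stood at 57.5, 51.8 and 104 CPM in the pools against 188 CPM in the other cells (log2 ratio -1.39, -1.60 to -1.18). Of 8 genes linked to atresia, the death of follicles, 6 were lower and 0 higher (median -2.00), among them the actin-binding protein Cald1, at 55.4 against 548 CPM (-3.31, -3.54 to -3.08), and the growth hormone receptor Ghr, at 17.6 against 115 CPM (-2.70, -3.13 to -2.30). The protease Ctsl of the same list was the exception with most UMIs, at 4169 against 3371 CPM. Of 16 genes of the basement membrane and matrix 13 were lower (median -1.28), for example Col4a1 at 25.1 against 82.5 CPM. Markers of some other cell types were lower in the same contrast. Past 1.5-fold lower were 6 of 8 stromal fibroblast (median -0.86), 2 of 2 smooth muscle (-2.64), 3 of 4 theca and 4 of 6 luteal genes. The stromal list summed to 106 against 193 CPM, and the luteal list, with 1 gene higher, to 537 against 507 CPM. Other marker lists went the other way or differed between pools. All 5 blood endothelium genes were higher (1.14, with 1.86, 3.29 and -1.69 in the pools), at 41.1 against 15.4 CPM. So were 2 of 6 macrophage, 2 of 4 B cell and 1 of 7 T and NK cell genes, while 1 B cell gene was lower. Over all genes tested 11.5% were higher and 20.7% lower. The medians in pools A, B and C were 1.71, -1.08 and -2.05 for macrophage genes and 0.25, 0.74 and -0.42 for B cell genes. For T and NK cell genes they were -0.87, 2.32 and -0.75, so the direction differed between pools for all 3 lists. The part of other cell types in the matrix and atretic values was not tested. Of 8 antral mural genes 3 were higher and 1 lower in young cells (median 0.38), 1 higher and 3 lower in aged cells (0.01).

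The genes lowest in the dividing cells by the ranking were mostly few UMIs there. Coch stood at 37.5 against 376 CPM (log2 ratio -3.33, -3.61 to -3.06), the axon guidance protein Ntn4 at 13.0 against 89.8 CPM (-2.78, -3.28 to -2.32), and the vessel regulator Angpt2 at 1.96 against 22.6 CPM (-3.53, -5.00 to -2.37, and -4.59 without pool B). The imprinted RNA H19 had 4 UMIs in dividing and 163 in other cells, with a log2 ratio of -4.24 that was -5.76 without pool A and -3.52 without pool C. Dpp4 had 0 UMIs in dividing cells and 52 in the others, and Cd24a had 4 and 139. The serine protease Prss35 had 6 and 191, Fam180a 1 and 63, Tmem100 9 and 186, and Ifi204 2 and 77.

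Metabolic and stress lists moved less. Glycolysis had 10 of 15 genes past 1.5-fold higher and 2 lower (median 0.65), with lactate dehydrogenase Ldha at 559, 605 and 415 CPM in the dividing cells of the pools against 267 CPM (0.96, 0.87 to 1.06). Cholesterol biosynthesis had 11 of 20 higher and 1 lower (0.63), with Fdps at 153 against 66.8 CPM. Of 22 nuclear genes of oxidative phosphorylation 1 was higher (0.28), and of 13 mitochondrially encoded genes 3 were lower (-0.47). Immediate early and dissociation stress genes were lower in 12 of 19 and higher in 1 (-0.78), with Fos at 2042 against 2810 CPM, and the exception was the chaperone Hsp90aa1, at 1132 against 600 CPM. Of 14 p53 targets 7 were lower (-0.75). Among inhibitors of cell cycle kinases, Cdkn1a stood at 6.84 against 20.0 CPM (-1.55, -2.29 to -0.88, and -2.53 without pool A), Cdkn1c at 8.15 against 18.2 CPM (-1.16, -1.84 to -0.53) and Cdkn1b at 82.4 against 82.5 CPM. The G1 cyclin Ccnd2, a target of FSH, stood at 342 against 235 CPM (0.54, 0.43 to 0.66).

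The comparison of aged with young dividing cells sets the dividing cells of 1 aged sample beside those of 1 young sample, and it rests on 20 aged cells. Of 9413 genes with at least 20 UMIs, 17.5% lay past 1.5-fold higher and 18% past 1.5-fold lower in aged cells, with a median log2 ratio of 0.05. As a measure of the spread between repeats, pairs of young pools put 6.05% to 8.42% of genes past 1.5-fold higher and 7.0% to 8.99% lower. All 7 tested genes of the antral mural list were past 1.5-fold higher with age, and the median log2 ratio was 3.14, with 3.29, 2.44 and 3.96 in pools A, B and C. The gene lists were chosen with earlier results of these data known, so this count is no independent result. Inhba, Inhbb, Cyp19a1, Grem1 and Nap1l5 of the list were also named by the ranking of single genes in this same comparison. Summed over the list, aged cells held 10135 CPM and young cells 1403 CPM.

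Inhba, which encodes the activin A subunit and lies at chr13:16011851-16031621, stood at 415, 584 and 213 CPM in the young dividing cells of pools A, B and C. In the aged dividing cells it stood at 5732, 3512 and 4819 CPM, above every young pool. The log2 ratio was 3.48 (3.37 to 3.59), and 16 of 20 aged cells and 74 of 174 young cells held a UMI of Inhba. Inhbb (chr1:119415465-119422248) stood at 207, 282 and 123 CPM in young and at 1956, 1539 and 1938 CPM in aged cells (3.14, 2.98 to 3.31). Cyp19a1, the aromatase that makes oestradiol (chr9:54165937-54268110), stood at 3.2, 32.4 and 12.4 CPM in young and 337, 266 and 293 CPM in aged cells. Its log2 ratio was 4.39 (3.85 to 4.95), 3.72 without pool A and 5.38 without pool B, and 10 of 20 aged cells held a UMI of it.

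Grem1, a secreted antagonist of BMP signals (chr2:113746164-113758646), stood at 5.59, 19.4 and 5.74 CPM in young and 287, 127 and 411 CPM in aged dividing cells (log2 ratio 4.77, 4.13 to 5.44). Without pool B the ratio was 6.02, and without pool C it was 3.96. Nap1l5 stood at 252, 386 and 315 CPM in young and at 2478, 1195 and 2624 CPM in aged cells (2.62, 2.47 to 2.77). For Inhba, Inhbb, Cyp19a1, Grem1 and Nap1l5 the lowest aged pool lay above the highest young pool, as it did for 10.8% of all genes tested. The ranking that named them asked for the same sign in every pool. Among the other 7 of the 12 highest genes, Fdx1, the electron donor of steroid synthesis, had a ratio of 2.08 (1.83 to 2.32), Mgarp 2.77, Tmem86a 3.26, Psd 3.58 (4.19 without pool A), the actin-binding Enc1 2.92, the GTPase Ralb 2.69 and the complement-pathway protease Masp1 2.81 (3.55 without pool B).

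The list of FSH response and oestradiol synthesis followed the same direction. It shares Cyp19a1, Hsd17b1, Lhcgr, Inhba and Grem1 with the antral mural list, so its count partly repeats the one above. Of 12 tested genes of FSH response and oestradiol synthesis 11 were past 1.5-fold higher and 0 lower (median 1.22, and 1.37, 0.95 and 1.71 in the pools). Inha stood at 4004, 3358 and 3061 CPM in young and 8986, 5745 and 7352 CPM in aged dividing cells (log2 ratio 0.96, 0.89 to 1.02). Hsd17b1, which completes oestradiol synthesis, stood at 449, 568 and 353 CPM and at 1736, 1062 and 1838 CPM (1.68, 1.53 to 1.84). Fshr stood at 51.9, 42.7 and 36.4 CPM and at 135, 90.5 and 110 CPM (1.24, 0.66 to 1.78), Fst had a ratio of 1.01 (0.88 to 1.14) and Foxl2 one of 1.11 (0.72 to 1.48). Each aged pool lay above each young pool for Inha, Hsd17b1 and Fshr. Of 20 genes of cholesterol biosynthesis 15 were higher and 1 lower (1.02), with the farnesyl diphosphate synthase Fdps at 153 CPM in young and 356 CPM in aged cells (1.21, 0.91 to 1.51).

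**Figure D3:**
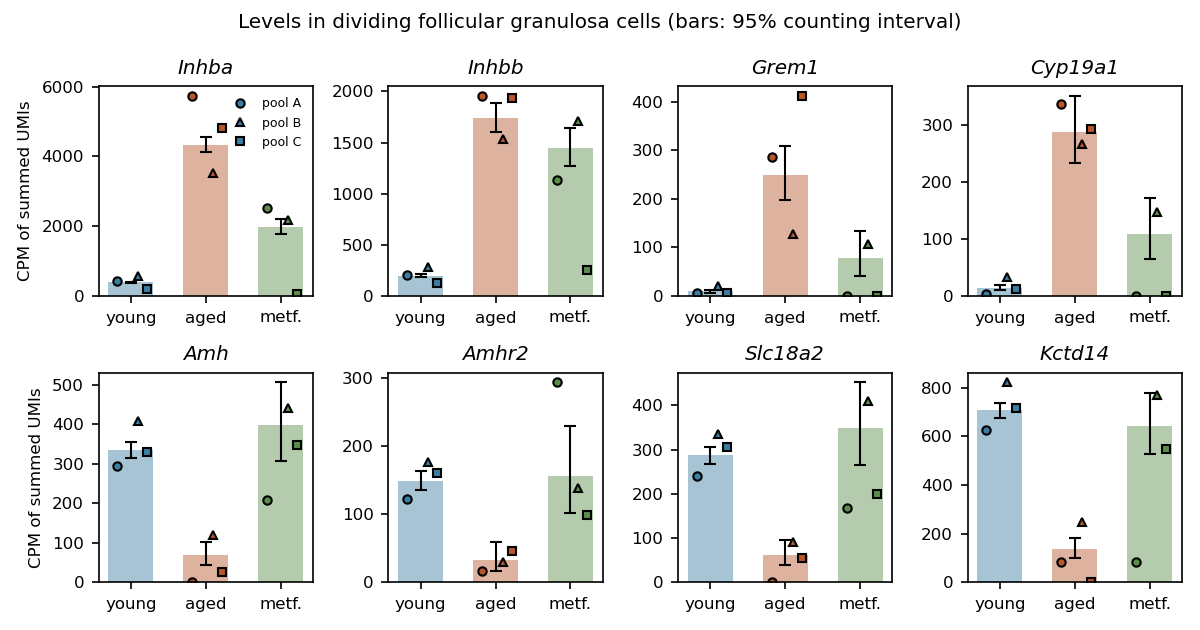
Level in CPM of 8 genes in dividing follicular granulosa cells of young, aged and metformin (metf.) ovaries; bars are the 3 pools together, whiskers exact 95% intervals for counting error, and symbols the pools. In the upper row the aged pools lie above every young pool, and in the lower row below every young pool.

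Amh, the hormone of small follicles, was among the 12 lowest genes in the aged dividing cells. Amh (chr10:80805243-80807648) stood at 294, 408 and 329 CPM in the young pools and at 0, 121 and 27.4 CPM in the aged pools, with a log2 ratio of -2.28 (-2.95 to -1.69). Only 3 aged cells held a UMI of Amh, 82.6% of its 23 aged UMIs lay in 1 cell, and the ratio was -4.12 without pool B. Its receptor Amhr2 (chr15:102445367-102454633) stood at 122, 176 and 160 CPM and at 16.9, 30.2 and 45.7 CPM (-2.18, -3.19 to -1.32). Kctd14 stood at 626, 821 and 717 CPM and at 84.3, 247 and 0 CPM (-2.36, -2.81 to -1.94), and at -4.49 without pool B. Slc18a2, a vesicular monoamine transporter, stood at 241, 335 and 305 CPM and at 0, 90.5 and 54.9 CPM (-2.19, -2.89 to -1.57), and at -2.93 without pool B. For these 4 genes every aged pool lay below every young pool, as it did for 11.7% of all genes tested, and the ranking had asked for the same sign in every pool.

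Ccn2, a matrix-associated signalling protein, had 248 UMIs in 55 of 174 young cells and 0 UMIs in the 20 aged cells. With 3 UMIs as the floor its log2 ratio was at most -3.17, or -2.33 without pool B and -2.36 without pool C. The other 7 of the 12 lowest genes were the inositol synthase Isyna1 (-1.94), the apolipoprotein Apoa1 (-1.89), Wfdc10 (-1.96), Tdrd5 (-2.24, and -1.48 without pool B), the glutamine transporter Slc38a3, Nipal1 and the iron exporter Slc40a1. Slc38a3 rested on 1 aged UMI (-3.76, -9.07 to -1.25), which lay in pool B, and without it the floor allows a ratio of at most -1.23. Slc40a1 rested on 2 aged UMIs (-3.07, -6.13 to -1.19, and -3.98 without pool A or -2.12 without pool C). Nipal1 had 6 aged UMIs (-2.36, -3.82 to -1.22, and -3.88 without pool B). Of 6 preantral genes 4 were past 1.5-fold lower and 1 higher (median -2.15, and -4.26, -1.87 and -2.60 in the pools). The higher gene was Aldh1a1, a retinaldehyde dehydrogenase, at 30.3 CPM in young and 98.7 CPM in aged cells. Wt1 stood at 65.5 and 12 CPM (-2.45, -4.34 to -1.07) and the binding protein Igfbp5 at 77.9 and 8.97 CPM (-3.12, -5.41 to -1.55).

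**Figure D4:**
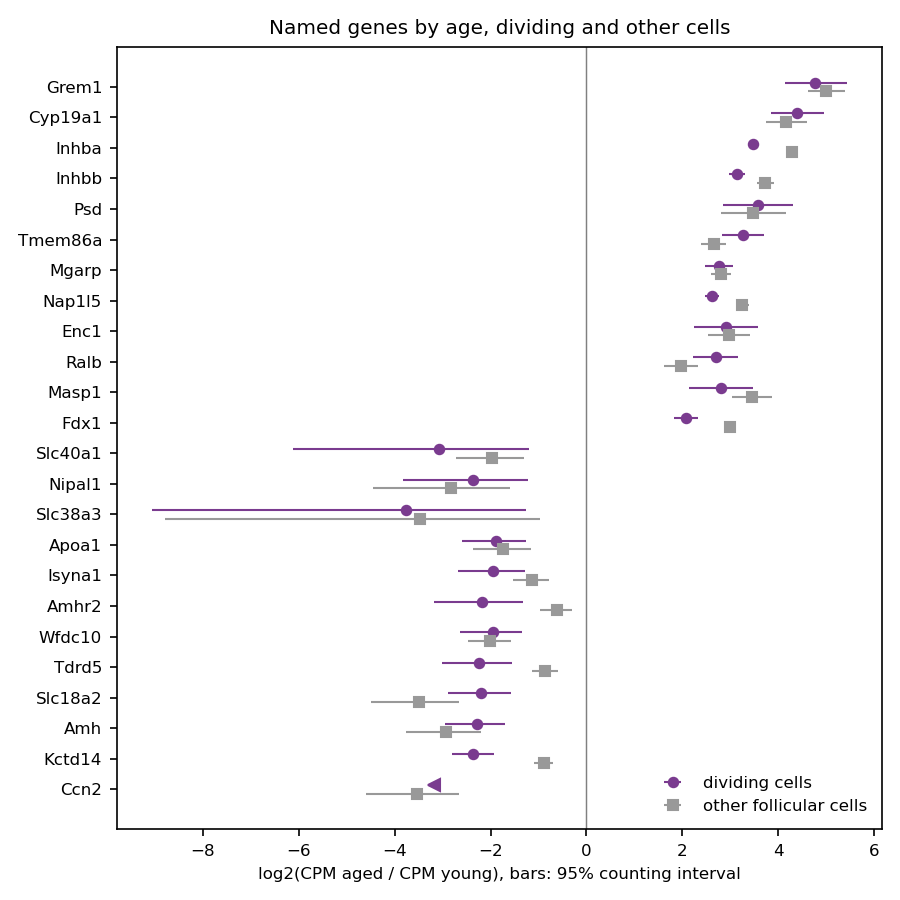
Log2 ratio of CPM in aged over young cells for the 24 genes named by the ranking in dividing cells, in dividing (circles) and other (squares) follicular granulosa cells; bars are exact 95% intervals for counting error and the triangle for Ccn2 is a bound from a floor of 3 UMIs. For every gene plotted the sign is the same in dividing and other cells.

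The same direction was seen in the other follicular granulosa cells, those below the threshold of the rule. In those cells the log2 ratio of aged to young was 4.28 for Inhba, 3.73 for Inhbb, 4.17 for Cyp19a1, 5.00 for Grem1 and -2.93 for Amh, and 19.8% of genes were past 1.5-fold higher and 16.1% lower. Cell by cell, the summed level of the antral mural list had a median of 562 CPM in young dividing cells (range 0 to 10652) and 11316 CPM in aged dividing cells (0 to 24473). In the other follicular cells the medians were 141 and 689 CPM. The preantral list had medians of 226 CPM in young and 130 CPM in aged dividing cells, and 567 and 547 CPM in the other cells. The aged dividing cells spread over the list, with the lower quartile at 4624 and the upper at 14677 CPM, and 1 of 20 held none of it.

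**Figure D5:**
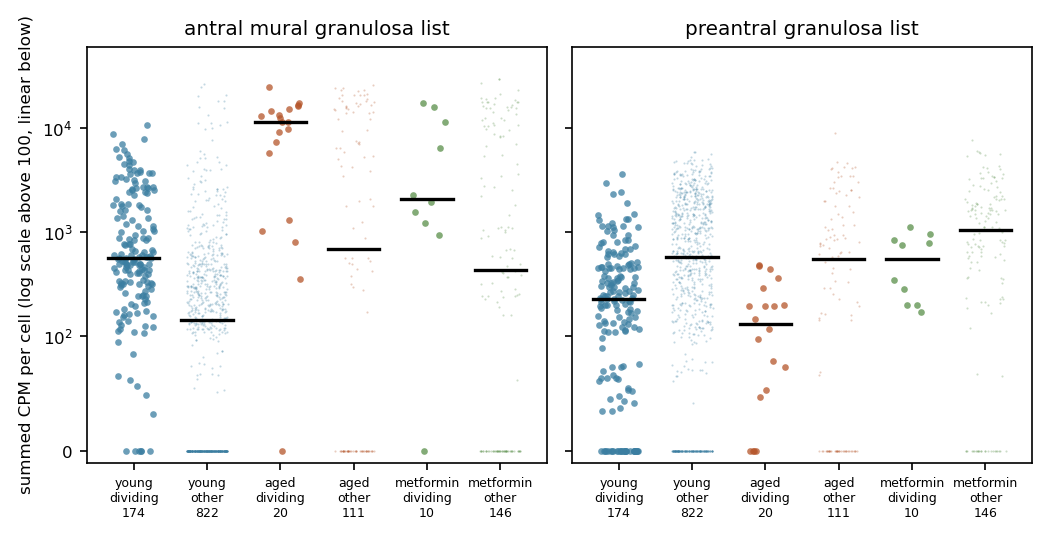
Summed CPM per cell of the antral mural list (left) and the preantral list (right) in dividing and other follicular granulosa cells of each condition, with the number of cells under each name; each point is a cell and the black line the median. The axis is linear below 100 and logarithmic above, and the antral mural median of the aged dividing cells, 11316 CPM, lies above the quartiles of the young ones, 304 and 1823 CPM.

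The cell cycle lists are given side by side for age. Of 9 cell cycle transcription factors 7 were past 1.5-fold higher and 0 lower (median 1.03). Of 18 kinetochore genes 2 were higher (0.13), of 24 spindle genes 1 (0.16), and of 20 cyclins and kinases 0 were higher and 3 lower (0.09). Top2a itself stood at 678, 507 and 750 CPM in young and 927, 827 and 1216 CPM in aged members, which is part of the rule. Replication genes stood apart from the mitotic lists, with 17 of 30 higher and 0 lower (0.62), although the medians by pool were -0.09, 0.91 and 0.32. Pcna stood at 169, 223 and 190 CPM in young and at 152, 495 and 293 CPM in aged cells (log2 ratio 0.96, 0.66 to 1.24), so its aged pool A lay below the young pools. Replication histones were higher in 7 of 10 (0.75), with the linker histone Hist1h1b at 544, 443 and 774 CPM and at 826, 1316 and 1207 CPM (1.0, 0.84 to 1.16). The share of members in S phase moved with this, from 24.1% to 50%. Within G2/M cells alone the replication median was 0.20 and the antral mural median 3.66, with Inhba at 3.72 and Grem1 at 5.62. This comparison within a phase was added after the data were seen.

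Glycolysis genes were higher in 12 of 15 and lower in none (median 0.90, with 0.07, 0.90 and 1.04 in pools A, B and C). Their summed level was higher in S than in G2/M cells, at 3679 and 2658 CPM in young and 7244 and 3828 CPM in aged members. The part of the larger S share in the rise with age was not tested. Ldha stood at 559, 605 and 415 CPM in young and 573, 1225 and 960 CPM in aged dividing cells (log2 ratio 0.97, 0.80 to 1.14), so that pool A lay within the young range. Aldoa stood at 432 and 834 CPM (0.95, 0.76 to 1.14). Nuclear genes of oxidative phosphorylation had 1 of 22 higher (0.12) and mitochondrially encoded genes 0 of 13 past 1.5-fold (-0.01). Immediate early genes were lower in 7 of 19 and higher in 1 (-0.52). Of the inhibitors, Cdkn1a stood at 6.84 CPM in young and 23.9 CPM in aged cells on 21 and 8 UMIs (1.81, 0.42 to 3.04), Cdkn1b at 82.4 and 77.8 CPM and Cdkn1c at 8.15 and 12 CPM. Ccnd2 stood at 342 and 496 CPM (0.54, 0.29 to 0.78), and the gap junction protein Gja1 at 1608 and 2031 CPM (0.34, 0.22 to 0.45).

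The comparison of metformin with untreated aged dividing cells has 10 cells against 20 and uses the same aged cells as the comparison above. Of 4163 genes with at least 20 UMIs, 11.7% were past 1.5-fold higher and 15.7% past 1.5-fold lower with metformin, with a median log2 ratio of -0.03. Of 7 antral mural genes 5 were lower and 0 higher (median -1.14), with -1.18, -0.24 and -4.32 in pools A, B and C, of which pool C holds 1 metformin cell, and the median was -1.88 without pool B. Inhba, Inhbb, Cyp19a1, Grem1 and Nap1l5 of this list were ranked above for their high levels in these same aged cells. Their lower levels with metformin are therefore no independent result, and what that choice alone would give was not computed. Inhba stood at 2515, 2177 and 49.8 CPM in the metformin pools against 5732, 3512 and 4819 CPM in the aged pools, every metformin pool below every aged pool, as for 6.87% of all genes tested (log2 ratio -1.14, -1.32 to -0.96, and -1.89 without pool B). Cyp19a1 was found in pool B alone, at 147 CPM in 2 metformin cells against 266 CPM (-1.41 over all pools, -2.22 to -0.67, and without pool B a bound of at most -2.17 from the floor of 3 UMIs), and Grem1 at 106 against 127 CPM there (-1.67 over all pools, -2.63 to -0.81). Inhbb stood at 1132, 1711 and 249 CPM against 1956, 1539 and 1938 CPM (-0.27, -0.49 to -0.05, and -1.42 without pool B), so its pool B went the other way.

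Amh, Slc18a2, Amhr2 and Kctd14 were ranked above for their low levels in these same aged cells, so their higher levels with metformin are no independent result, and what the choice alone would give was not computed. Amh stood at 210, 442 and 349 CPM in the metformin pools against 0, 121 and 27.4 CPM, each metformin pool above each aged pool (log2 ratio 2.53, 1.83 to 3.28), and 6 of 10 metformin cells held a UMI. Slc18a2 stood at 168, 409 and 199 CPM against 0, 90.5 and 54.9 CPM (2.48, 1.73 to 3.27), Amhr2 at 293, 139 and 99.6 CPM against 16.9, 30.2 and 45.7 CPM (2.25, 1.18 to 3.42), and Kctd14 at 83.8, 769 and 548 CPM against 84.3, 247 and 0 CPM (2.23, 1.72 to 2.76). Every metformin pool of Slc18a2 and Amhr2 also lay above every aged pool, as for 3.87% of all genes tested, and in pool A the level of Kctd14 was nearly the same in both. Igfbp5 had 41 UMIs in 5 metformin cells and 3 in the aged cells (4.78, 3.13 to 7.12). Of the 3 tested genes of the preantral list 1 was past 1.5-fold higher (median log2 ratio 0.01, with 1.34, 1.22 and -1.14 in the pools). Cell by cell that list held a median of 543 CPM per metformin cell, against 130 in aged and 226 in young dividing cells, while the antral mural list held 2078 CPM, against 11316 and 562.

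The ranking named 6 genes here, Amh and Slc18a2 among them. Mgp, an inhibitor of calcification, had a log2 ratio of 3.38 (2.66 to 4.17), but 98.0% of its 98 metformin UMIs lay in 1 cell, and without that cell the ratio was -2.05. The same pattern held in part for the desmosome protein Dsp (2.81, 2.09 to 3.58), with 56.2% of its metformin UMIs in 1 cell, and for the growth arrest gene Gadd45g (2.16, 1.54 to 2.81), with 63.4%. Hpgd, which breaks down prostaglandins, was the lower gene, at 41.9, 32.7 and 149 CPM against 84.3, 121 and 485 CPM (-2.28, -3.54 to -1.23). Its pool C metformin level exceeded the aged levels of pools A and B.

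Of 24 tested replication genes 13 were past 1.5-fold lower with metformin and 0 higher (median -0.60, with -0.91, -0.69 and 0.19 in the pools), and of 14 kinetochore genes 5 were lower and 0 higher (-0.45). The share in S phase moved with this, from 10 of 20 to 2 of 10 members, and within G2/M cells the replication median was -0.25, the antral mural median -0.57 and that of Inhba -0.67. Glycolysis was lower in 10 of 11 and higher in 0 (-0.76, with -0.85, -1.01 and 0.12), for example Aldoa at 335, 450 and 349 CPM against 641, 881 and 869 CPM (-0.99, -1.38 to -0.60). The glycolysis list summed to 2878 CPM in metformin and 3828 CPM in aged G2/M cells, and to 2535 and 7244 CPM in S cells. The part of phase in this was not tested. FSH response genes, a list that shares members with the antral mural one, were lower in 6 of 10 (-0.84). Fshr had 2 metformin UMIs against 35 aged ones (-3.12, -6.22 to -1.16), both in pool B. Without that pool none was left, and the floor of 3 UMIs allows a ratio of at most -0.80. Hsd17b1 stood at 1324 CPM against 1435 CPM, and Ccnd2 at 530 against 496 CPM, with intervals that include 0 on the log2 scale.

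Markers of other cell types were read in the same members. Oocyte and red blood cell lists were at or near 0, with 8, 1 and 1 oocyte UMIs and 4, 0 and 1 red blood cell UMIs in young, aged and metformin members. Luteal markers went with age as the antral list did, at 537 CPM in young and 1385 CPM in aged members, although Akr1c18 and Star were at 0 in the aged ones. The luteal and antral mural lists share Lhcgr, and 26.1% of the aged luteal UMIs lay in 1 cell. Stromal fibroblast markers summed to 106 CPM in young, 132 in aged and 656 in metformin members, and 90.9% of the aged and 96.3% of the metformin UMIs lay in 1 cell each. In young members 66.9% of the macrophage UMIs lay in 1 cell. Leaving out cells with 10 or more UMIs of macrophage, T cell, endothelial or stromal markers (17 of 174 young, 2 of 20 aged and 2 of 10 metformin members) gave an antral mural median of 3.27 with age, with Inhba at 3.65 and Amh at -2.23. For metformin, Cyp19a1 was then at -3.30 on 1 cell with UMIs of it, Inhba at -1.57 and Amh at 2.81. Fewer cells with a transcript and less of it per cell cannot be told apart in the summed values.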

How the data were processed

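The authors deposited a table of UMI counts per gene and cell and a table of cells with a class name, tag, pool, phase, phase scores and the percent of mitochondrial UMIs. Per the submitters' processing notes, reads were processed with Cell Ranger 3.0.2 on mm10 (GRCm38). The deposited percent and score values and the class and phase names (other deposited labels) were used as given, and the deposited cells held at least 500 UMIs and at most 20.0% mitochondrial UMIs. Members and gene lists were chosen with earlier results of these data known. Python 3.11.15 with numpy 2.4.6, scipy 1.17.1, pandas 2.3.3 and matplotlib 3.10.9 was used.

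Counts were summed over the cells of a group and given as CPM of the group's total. A log2 ratio has an exact conditional 95% interval, and a count of 0 was replaced by a floor of 3 UMIs, which gives a bound. Medians over lists and shares of all genes used a prior of 1 UMI scaled to depth and genes with at least 20 UMIs over both groups, and "past 1.5-fold" refers to these. No test was made, because each condition is 1 sample. Named genes are a fixed set of 17, up to 4 members of each of 29 lists with the most UMIs, and up to 12 genes a direction with at least 50 UMIs, ranked by the interval bound nearest 0 with the same sign in the pools. That ranking left out the rule genes, Malat1, Xist, unnamed gene models, and haemoglobin, ribosomal protein and mitochondrial genes. Dropped pools, thinning, other thresholds, priors and scalings were the alternatives, and leaving out cells with other cell types' markers and the comparison within G2/M were added after seeing the data. Promoters are from RefSeq, gene positions from GENCODE, both on GRCm38. The scripts were tested on simulated data.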

Additional observations from a re-analysis of the deposited data

Results flagged for a closer look

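Over 62 named genes, the effects in dividing and other cells, or in young and aged cells, pointed in opposite directions in every pool for 3 genes, and the difference was not tested for any of them. The gap junction gene Gja1 was higher in dividing than in other young cells, with a log2 ratio of 0.63 (0.64, 0.59 and 0.66 in pools A, B and C). In aged cells it was lower in the dividing ones, at -0.34 (-0.21, -0.53 and -0.23), a difference of 0.96. Kitl, the ligand presented to the oocyte, was lower in aged than in young dividing cells, at -0.59 (-0.19, -1.10 and -0.34), with a 95% interval of -1.42 to 0.14 that includes no change. In the other follicular granulosa cells it was higher with age, at 0.84 (0.71, 0.21 and 1.61), a difference of -1.43. Mgp was lower with age in dividing cells, at -0.67 (-1.26, -0.72 and -0.58), and higher in the others, at 1.05 (1.34, 1.23 and 0.45), a difference of -1.73. The interval in dividing cells was -1.43 to -0.0026. Stromal fibroblast markers moved with the rise in the other cells, at 193 CPM in young and 647 CPM in aged ones with 7 of 8 genes past 1.5-fold higher, and their part in it was not tested. Aged dividing cells held 16 UMIs of Kitl and 19 of Mgp.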

How the results depend on the processing

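Of 1869 values recomputed under 18 settings for 186 results, 1623 were counted as unchanged, 241 as moved and 5 as reversed. Unchanged meant a move below the spread between pools, except for shares of genes past 1.5-fold, which had to stay within 1.5 times the reported share. That limit is wider. The share between dividing and other cells went from 32.1% to 44.0% at 1 UMI, with a spread of 1.38, and counted as unchanged. With metformin the spread between pools was 2.14 for the antral mural median of -1.14, and 6.18 for the dividing share of 6.41%. Moves of nearly the whole share, or beyond the whole median, would thus count as unchanged there. The label therefore says little about those values. Reversal was counted only for genes whose interval left out 0 and lists whose median lay past 1.5-fold. The young share was 25.2% with 1 UMI as the threshold, 7.07% and 9.88% after thinning to 1000 and 2000 UMIs, and 13.3% without cells with 2 or more UMIs of macrophage, T cell or endothelial markers, and the aged share was 6.96% at 1000 UMIs. The kinetochore median between dividing and other cells was 4.75 at 2000 UMIs. The share of genes past 1.5-fold was 35.5% with age and 27.4% with metformin at 20 UMIs, 56.0% and 52.0% at 1 UMI, and 22.7% and 10.9% at 100 UMIs. With age, 17.5% were higher and 18% lower, against 19.1% and 37.0% at 1 UMI. The ovulation list (0.96 with age, on 3 genes) was at -1.08 with a minimum of 1 UMI. With metformin, Gja1 (0.28) was at -0.070 after thinning to 2000 UMIs and, leaving out a pool, from -0.093 (pool B) to 0.50, and Mgp (3.38) at -1.95 with members of 3 or more UMIs and -2.05 without its top cell. Leaving out a pool gave shares of 16.2% to 18.4% in young, 12.2% to 19.0% in aged and 2.88% to 8.41% in metformin cells, and antral mural medians of 2.80 to 3.52 with age and -1.88 to -0.87 with metformin. The 20 aged and 10 metformin members limit every value of those comparisons. No paired analysis was possible because each condition was taken as 1 sample whose pools are technical repeats, and no result comes from a test.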

Other observations

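Further lists in aged against young dividing follicular granulosa cells are read against all genes tested, of which 17.5% were past 1.5-fold higher and 18% lower. Of 16 genes of homologous recombination and crosslink repair 10 were higher and 1 lower (median log2 ratio 0.75, with -0.29, 0.92 and 0.60 in pools A, B and C). Of 13 matrix genes 3 were higher and 5 lower (-0.47). Of 15 genes of ribosome biogenesis 0 were higher and 3 lower (-0.23), and only the lower count was near the share over all genes.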
